A study of Homo sapiens with 8 samples.

Results

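Genes for plasma proteins of the kind that the liver secretes were followed in A549 cells: fibrinogen chains, serpins, coagulation factors and their regulators, transport proteins, apolipoproteins and complement components. The set also holds F3, tissue factor, which is a membrane receptor and not a secreted plasma protein. A list of 37 gene symbols defined the set. Each gene was read from an array probe set naming no other gene, the brightest by mean of 8 arrays where there were several. Of the 37 members, 36 had such a probe set, out of 19775 genes on the array. VTN, which encodes vitronectin, was not analysed because both of its probe sets also name other genes. A549 is a human lung adenocarcinoma line. It was grown as spheroids (3D) or as monolayers (2D). Treated cultures of either form received both cytokines, TGFβ at 2 ng/ml and TNF at 10 ng/ml, 2 times for 48 h each, and control cultures received vehicle. There were thus 4 groups (3D treated, 3D control, 2D treated, 2D control) of 2 arrays each. The study's methods describe these pairs as technical duplicates and the deposited design as biological replicates, so p-values measure a spread between arrays that may be technical.

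Hepatocytes make most circulating coagulation factors, complement components and carrier proteins, and their transcription there is known to depend on factors such as HNF1, HNF4, FOXA and C/EBP. During inflammation IL-6 and IL-1 change this output in the acute phase response. Fibrinogen, SERPINA1, SERPINA3, C3, CFB and CP are known to rise in liver in that response, and ALB, TTR, TF, RBP4 and AHSG to fall. Some of these genes are also transcribed in epithelia outside the liver.

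The set was expressed only in part. On every array 27 members lay above the array median and 9 lay below it. The 9 were SERPINC1 (antithrombin), SERPIND1 (heparin cofactor II), SERPING1 (C1 inhibitor), F10 (coagulation factor X), PLG (plasminogen), ALB (albumin), TF (transferrin), HPX (hemopexin) and APOB (apolipoprotein B). Their log2 expression values were between 2.23 and 2.43 on all arrays, at the lower end of the deposited scale, whose lowest value is 2.23 and whose array medians are 2.43 to 2.5. No fold is given for these 9. APOA1, the main apolipoprotein of high-density lipoprotein, had the same value (3.45) on 6 of 8 arrays. TTR (transthyretin) and PROC (protein C) were low, with ranges of 3.34 to 4.23 and 3.66 to 4.86.

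Markers of cell types were read on the same arrays. Of 12 measured A549 and lung epithelial markers, the keratin genes KRT8 and KRT18 and the reductase genes AKR1B10 and AKR1C1 had group means of 12.4 or more. NKX2-1, the lung lineage factor, was below the array median on all arrays. NAPSA, SFTPC and SFTPD, markers of alveolar differentiation, had group means of at most 2.66. SFTPB, another surfactant gene, hardly varied, at 4.12 to 4.21 on all arrays, and NAPSA was at 2.53 in every group. The mean level of this list was 7.98 and 8.0 in 3D treated, 8.54 to 8.63 in 3D control, 8.25 to 8.3 in 2D treated and 8.57 to 8.6 in 2D control cultures, and 6 of its 12 genes fell in treated 3D cultures, with EPCAM at −2.20, KRT8 at −1.05 and AKR1B10 at −0.95 (limma adjusted p = 0.0402, 0.0361 and 0.00213). Of 13 measured hepatocyte enzymes and receptors, 4 were below the median on all arrays (CYP7A1, CYP8B1, ASGR2, ARG1) and 7 above it on all. The list had a mean level of 4.69 to 4.87 over the 8 arrays, but its genes differed widely. Group means were 12.58 to 13.29 for HPD, 10.52 to 14.38 for CPS1 and 5.27 to 9.34 for TDO2. Those of CYP3A4, TAT, ASGR1 and SLCO1B1 were at most 5.22. In treated 3D cultures TDO2 was higher (4.07, limma adjusted p = 0.00832). CPS1 and CYP3A4 were lower there (−2.07 and −0.70, limma adjusted p = 0.00303 and 0.00187). Endothelial markers were below the median on all arrays in 5 of 6 cases (list mean 2.59 to 2.65). Leukocyte markers were below it in 3 of 6, PTPRC and CD3E among them, while the list mean was 4.01 to 4.12 in 3D treated, 4.77 to 4.93 in 3D control, 4.45 to 4.63 in 2D treated and 4.31 to 4.86 in 2D control cultures, CD14 being the single gene called in 3D (−2.86, adjusted p = 0.0477). Fibroblast markers were below it in 4 of 8, with a list mean of 3.03 to 3.45 in 3D treated and 2.89 to 3.07 in the other arrays. The part of these shifts in the results that follow was not tested. In bulk RNA, fewer cells that express a gene and less RNA per cell cannot be told apart.

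Treatment of spheroids with TNF and TGFβ addressed how the set behaves in cells driven toward a mesenchymal state. In treated 3D cultures 9 of 36 members fell and 1 rose, and 26 did not pass (limma, Benjamini-Hochberg adjustment over all 54613 probe sets, threshold 0.05). Of all 19775 genes, 10.8% were called lower and 5.53% higher in this comparison. Either way, 16.4% of all genes were called. Members were chosen with earlier results of these data known. Their shares, here and below, stand beside those of all genes as description only. The median log2 fold-change was −0.28 over the members and 0 over all genes. Those that fell were FGA, FGG, AGT, APOH, C5, PROS1, CFI, F5 and F12, and the one that rose was F3. Fitted on the 4 arrays of the 3D cultures alone, 2 members (FGA and APOH) were called lower and 0 higher.

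The 3 chains of fibrinogen, the precursor of the fibrin clot, had the most negative log2 fold-changes in the set. FGA, the α chain, had log2 expression values of 4.58 and 4.47 on the 3D treated arrays, against 8.4 and 8.7 on the 3D control arrays. It was 6.41 and 6.27 in 2D treated cultures and 6.78 and 6.49 in 2D control cultures. The 3D groups lay far apart, and the drop in 3D was 16.3-fold (log2 fold-change −4.02, standard error 0.15, limma adjusted p = 0.00187). FGG, the γ chain, had values of 3.55 and 4.71 in 3D treated and 7.8 and 7.63 in 3D control cultures (log2 fold-change −3.59, standard error 0.60, limma adjusted p = 0.0354). FGB, the β chain, had values of 3.67 and 5.11 in 3D treated and 7.75 and 7.94 in 3D control cultures (log2 fold-change −3.45, standard error 0.74, limma adjusted p = 0.0637). Both treated 3D arrays were below both controls for each chain, although the treated arrays of FGB differed by 1.44 between themselves and the call was not reached. On its second probe set FGB did pass (−3.06, adjusted p = 0.0421). FGA's own second probe set, dimmer and above the array median on 7 arrays, did not pass in 3D (−1.30, limma adjusted p = 0.086). In 2D cultures FGG had values of 4.14 and 4.74 with treatment and 6.2 and 5.0 without, and FGB 5.19 and 4.78 with treatment and 7.46 and 5.87 without. The call of FGA held without any single array. That of FGG passed without 3D treated replicate 2 (adjusted p = 0.0485) and ended without each of the other arrays, at 0.0542 without either 2D control array, 0.0808 without either 2D treated array, 0.143 and 0.133 without 3D control replicate 1 and 2 and 0.0824 without 3D treated replicate 1.

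FGB, FGA and FGG lie side by side on chromosome 4 with 0 other protein-coding genes between them. The 250 bases upstream of their start sites are shown beside those of AGT and APOH, the other members that fell the most. They are RefSeq sequences of GRCh38.p14, on the strand of the gene: FGA at chr4:154590743-154590992 (minus), FGB at chr4:154562730-154562979 (plus), FGG at chr4:154612657-154612906 (minus), AGT at chr1:230714123-230714372 (minus) and APOH at chr17:66229416-66229665 (minus). Capitals mark matches to the motifs searched on both strands, of which the HNF1 half-site (GTTAAT), a C/EBP form (TTGCNNAA), a STAT form (TTCNNNGAA) and the IL-6 type II element (CTGGGA) occur here.
FGA: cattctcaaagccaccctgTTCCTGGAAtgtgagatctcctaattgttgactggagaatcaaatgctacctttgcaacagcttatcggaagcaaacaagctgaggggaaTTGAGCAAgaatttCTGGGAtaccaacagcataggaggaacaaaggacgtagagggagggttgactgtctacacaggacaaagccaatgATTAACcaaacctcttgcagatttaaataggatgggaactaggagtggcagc
FGB: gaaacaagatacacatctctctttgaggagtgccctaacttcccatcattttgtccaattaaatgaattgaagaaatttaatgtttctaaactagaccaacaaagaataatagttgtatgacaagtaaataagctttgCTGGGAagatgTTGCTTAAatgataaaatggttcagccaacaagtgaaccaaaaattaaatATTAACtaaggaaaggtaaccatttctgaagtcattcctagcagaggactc
FGG: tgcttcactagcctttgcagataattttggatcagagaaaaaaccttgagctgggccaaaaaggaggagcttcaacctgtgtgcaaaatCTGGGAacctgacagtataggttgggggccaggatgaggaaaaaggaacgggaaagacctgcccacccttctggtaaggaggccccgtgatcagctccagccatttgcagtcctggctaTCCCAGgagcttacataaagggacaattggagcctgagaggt
AGT: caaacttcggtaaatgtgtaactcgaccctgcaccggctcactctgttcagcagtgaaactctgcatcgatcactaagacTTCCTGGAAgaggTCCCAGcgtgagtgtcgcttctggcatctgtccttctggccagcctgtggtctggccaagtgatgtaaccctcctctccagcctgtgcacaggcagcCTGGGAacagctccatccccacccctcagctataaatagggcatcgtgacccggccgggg
APOH: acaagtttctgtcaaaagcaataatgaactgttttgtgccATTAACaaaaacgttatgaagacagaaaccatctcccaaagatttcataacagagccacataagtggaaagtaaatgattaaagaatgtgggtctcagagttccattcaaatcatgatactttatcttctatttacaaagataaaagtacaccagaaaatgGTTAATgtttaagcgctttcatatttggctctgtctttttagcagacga

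The HNF1 half-site was found in FGA and FGB, at 52 to 47 and 51 to 46 bases before the start, and at 2 places in APOH, 1 of them 49 to 44 bases before it. CTGGGA was found in all 3 fibrinogen promoters and in AGT, and no capitals in these 5 stretches overlap. RefSeq promoters were matched for 29 of the 37 members. Of these, 6 (20.7%) held GTTAAT, 7 (24.1%) TTGCNNAA, 7 (24.1%) TTCNNNGAA and 12 (41.4%) CTGGGA. The shares over 34943 promoters of the same length were 6.24%, 9.06%, 6.56% and 28.7%. An NF-κB form matched in F5 alone, an HNF4 form (CAAAGTCCA) in AHSG alone and a FOXA form (TGTTTAC) in PROS1 alone, against 1.73%, 0.326% and 2.98% of all promoters, and the full HNF1 palindrome, which contains the half-site, in 0 members and 0.00572% of all promoters. A match is a stretch of letters and not a measured binding site. The motifs and members were chosen with earlier results of these data known, so these shares are description only.

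**Figure D1:**
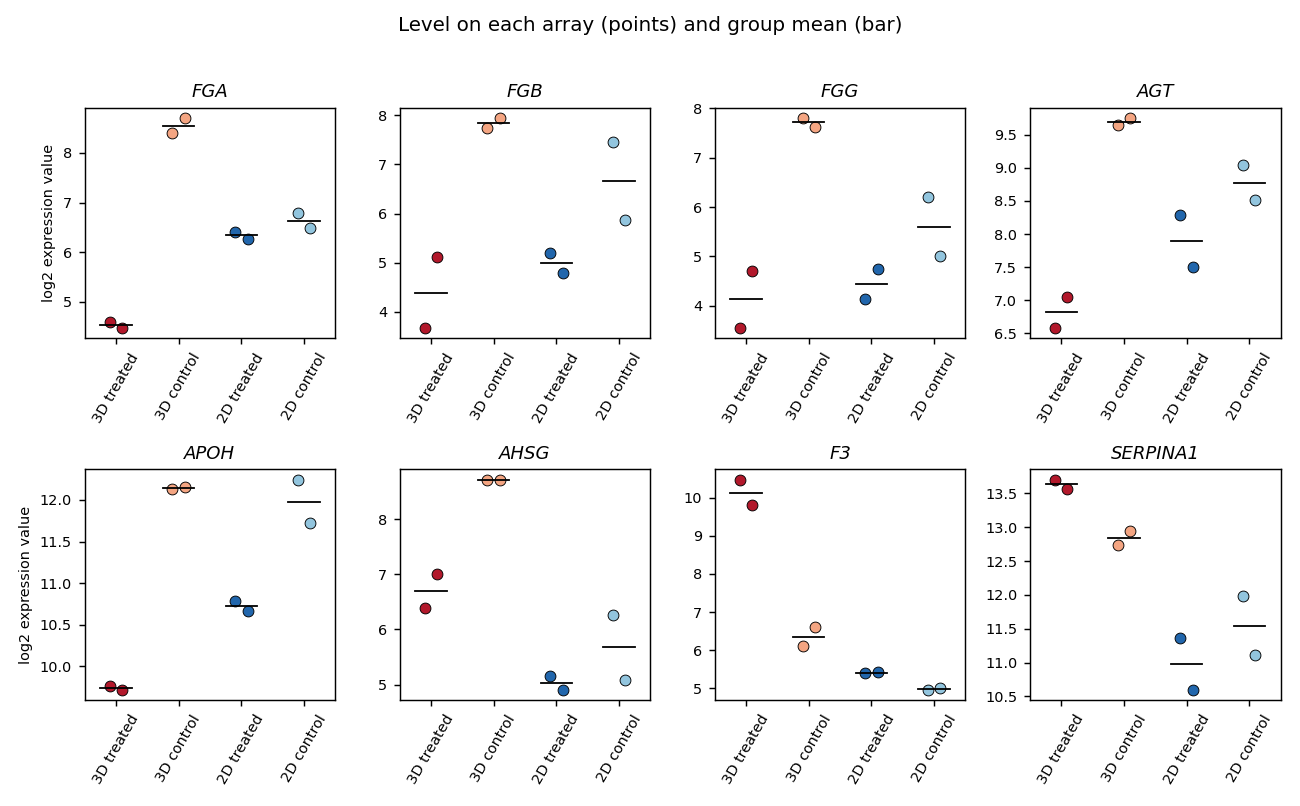
Log2 expression values (vertical axis, own range in each panel) of 8 members in the 4 groups (horizontal axis), with 1 point per array and a bar at the group mean of 2 arrays. FGA lies at 4.47 to 4.58 in 3D treated and 8.4 to 8.7 in 3D control cultures, whereas F3 lies at 9.8 to 10.46 in 3D treated and 6.1 to 6.6 in 3D control cultures.

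Among the serpins, AGT fell and the protease inhibitor genes SERPINA1 and SERPINA3 were not called. AGT encodes angiotensinogen, the substrate of renin. It had values of 6.58 and 7.05 in 3D treated and 9.65 and 9.75 in 3D control cultures, a drop of 7.38-fold (log2 fold-change −2.88, standard error 0.36, limma adjusted p = 0.0178). AGT lost its call when 3D treated replicate 1 (limma adjusted p = 0.051), 3D control replicate 1 (0.0773) or 3D control replicate 2 (0.0831) was left out. SERPINA1 encodes α1-antitrypsin, the inhibitor of neutrophil elastase. It had values of 13.7 and 13.57 in 3D treated and 12.74 and 12.94 in 3D control cultures (log2 fold-change 0.79, limma adjusted p = 0.423), and 11.37 and 10.6 in 2D treated and 11.98 and 11.11 in 2D control cultures. The 3D groups did not overlap, which is weak evidence with 2 arrays a group and was not counted over all genes. Arrays of the same 2D group lay further apart than those of the same 3D group. On a dimmer probe set of SERPINA1 the 3D comparison gave 2.81 (limma adjusted p = 0.00824), with group means of 6.67 in 3D treated, 3.86 in 3D control, 2.84 in 2D treated and 2.83 in 2D control cultures, whereas its second brightest probe set gave 0.94 (0.351). SERPINA3, α1-antichymotrypsin, had values of 13.83 and 13.59 in 3D treated and 12.66 and 12.56 in 3D control cultures (1.10, limma adjusted p = 0.2). SERPINA1 and SERPINA3 are near neighbours on chromosome 14, with 5 protein-coding genes between them. The other 3 serpins were at background.

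Of the coagulation factors and regulators, F3 went up while F5, F12 and PROS1 went down. F3, tissue factor, is the membrane receptor that starts the clotting cascade. Its values were 10.46 and 9.8 in 3D treated and 6.1 and 6.6 in 3D control cultures, a 13.7-fold rise (log2 fold-change 3.78, standard error 0.28, limma adjusted p = 0.00636). In monolayers F3 was 5.4 and 5.43 with treatment and 4.97 and 5.02 without, so the 3D treated arrays stood above all others. F5, the cofactor of the prothrombinase complex, had values of 10.42 and 10.45 in 3D treated and 11.65 and 11.51 in 3D control cultures, a drop of 2.22-fold (−1.15, standard error 0.06, adjusted p = 0.00319), and passed on both of its other probe sets (−1.27 and −1.47, adjusted p = 0.0197 and 0.00538). PROS1, protein S, the cofactor of activated protein C, had values of 10.17 and 9.57 in 3D treated and 11.49 and 11.29 in 3D control cultures (−1.52, adjusted p = 0.0303). F12, the contact factor XII, had the smallest called change, with 8.63 and 8.59 in 3D treated and 9.1 and 9.27 in 3D control cultures (−0.57, adjusted p = 0.0202). F2 (prothrombin) was 6.22 and 6.61 in 3D treated and 7.1 and 7.2 in 3D control cultures without passing (−0.74, adjusted p = 0.0859). PROC did not pass either (−0.22, adjusted p = 0.965).

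The calls of F3 and F5 held without any single array, although neither passed with the 3D arrays fitted alone (limma adjusted p = 0.0961 and 0.061). PROS1 lost its call without either 2D control array (0.075), either 2D treated array (0.0718), 3D control replicate 1 (0.128) or 3D control replicate 2 (0.103), and F12 without either 2D treated array (0.0529), 3D control replicate 2 (0.0591), 3D treated replicate 1 (0.054) or 3D treated replicate 2 (0.0739). TFPI, the inhibitor of the tissue factor pathway, had values on its brightest probe set of 13.19 and 13.28 in 3D treated and 13.39 and 13.33 in 3D control cultures (−0.13, limma adjusted p = 0.257). A second probe set of TFPI gave 0.44 with an adjusted p of 0.037, so its probe sets disagree in sign.

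Apolipoprotein H and fetuin A were the other secreted proteins with large shifts. APOH, β2-glycoprotein I, a phospholipid-binding plasma protein, had values of 9.76 and 9.72 in 3D treated and 12.13 and 12.15 in 3D control cultures, 5.28-fold lower (log2 fold-change −2.40, standard error 0.18, limma adjusted p = 0.00657). Its call held without any single array and with the 3D arrays fitted alone. AHSG, fetuin A, an inhibitor of mineral deposition, was 6.39 and 7.01 in 3D treated and 8.71 and 8.71 in 3D control cultures (−2.01, adjusted p = 0.0753), and passed on a second probe set that was close to background outside the 3D control arrays (−0.67, adjusted p = 0.00655). APOE, an apolipoprotein of remnant particles, lay between 6.67 and 7.08 on the 8 arrays.

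None of the 7 transport proteins was called by limma in treated 3D cultures. A filter on dim probe sets, with the fit repeated, called CP, RBP4 and AMBP lower, and also FGB, F2 and AHSG. CP, ceruloplasmin, the copper-carrying ferroxidase, had values of 13.21 and 13.69 in 3D treated and 14.34 and 14.3 in 3D control cultures (−0.87, limma adjusted p = 0.0679). Its 3 dimmer probe sets passed, at −1.03, −0.88 and −1.15 (adjusted p = 0.0306, 0.035 and 0.0156). RBP4, the plasma retinol carrier, was 9.24 and 9.75 in 3D treated and 10.39 and 10.41 in 3D control cultures (−0.91, adjusted p = 0.054). AMBP, the precursor of α1-microglobulin and bikunin, was 6.43 and 6.21 in 3D treated and 6.81 and 7.02 in 3D control cultures (−0.60, adjusted p = 0.13). TTR gave −0.28 (adjusted p = 0.467), and ALB, TF and HPX were at background.

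Within complement, the 2 members that fell in spheroids were C5 and CFI. C5, the component that is cleaved to open the terminal pathway, had values of 7.38 and 7.66 in 3D treated and 8.99 and 9.09 in 3D control cultures (log2 fold-change −1.52, standard error 0.15, limma adjusted p = 0.0106). CFI, the protease that inactivates C3b and C4b, had values of 10.31 and 10.59 in 3D treated and 11.88 and 11.9 in 3D control cultures (−1.44, standard error 0.19, adjusted p = 0.0211), and its second probe set passed too (−1.29, adjusted p = 0.012). C3, the central component, had values of 12.31 and 12.56 in 3D treated and 12.9 and 12.71 in 3D control cultures (−0.37, adjusted p = 0.438). CFB, the protease of the alternative pathway convertase, gave −0.23 (adjusted p = 1). C1S and C1R, the proteases of the C1 complex, gave −0.27 and −0.35 (adjusted p = 0.521 and 0.538). C5 lost its call when 3D control replicate 2 was left out (limma adjusted p = 0.0523), and CFI without either 2D treated array (0.0593), 3D control replicate 1 (0.0914), 3D control replicate 2 (0.0948) or 3D treated replicate 1 (0.0597).

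**Figure D2:**
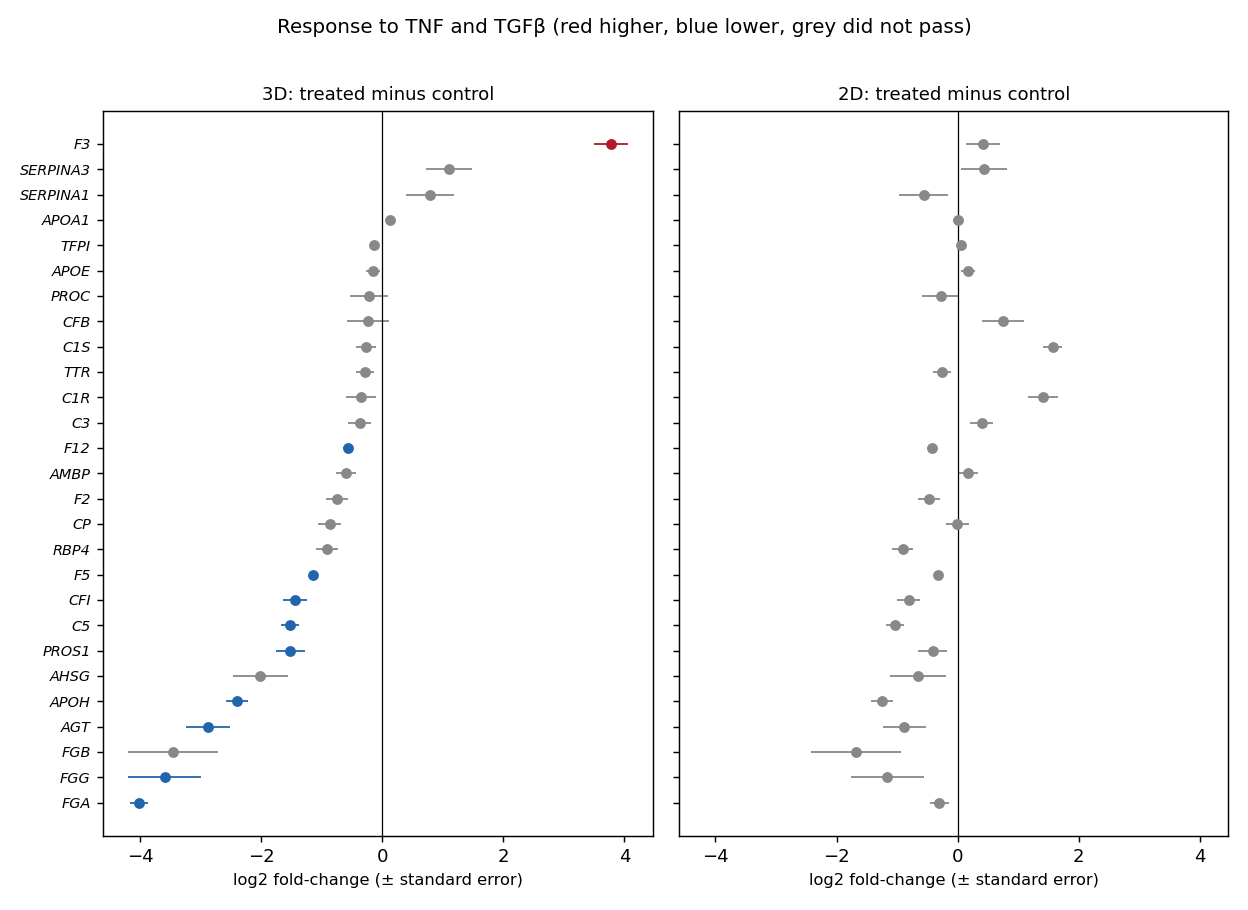
Log2 fold-changes (horizontal axis, same scale in both panels) with standard errors for the 27 members above background, in treated minus control 3D cultures (left) and treated minus control 2D cultures (right). Red and blue points passed the threshold as higher and lower and grey points did not, and F3 is the single red point on the left at 3.78 with FGA at the bottom at −4.02.

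The same cytokines were given to monolayers, to set their response beside that of spheroids. In treated 2D cultures 0 of 36 members passed the limma test. This comparison called few genes of any kind, 0.121% of all genes higher and 0.0759% lower (0.197% either way). The largest values in size were those of FGB (−1.68, limma adjusted p = 0.776), C1S (1.57, 0.0905), C1R (1.41, 0.202), APOH (−1.25, 0.153), FGG (−1.16, 0.9) and C5 (−1.04, 0.15). APOH had values of 10.78 and 10.67 in 2D treated and 12.24 and 11.72 in 2D control cultures, and C5 had 9.04 and 9.09 in 2D treated and 10.25 and 9.95 in 2D control cultures. In both genes the 2D groups did not overlap, which again was not counted over all genes and is weak evidence with 2 arrays a group. After a filter on dim probe sets, with the whole fit repeated on fewer probe sets, C1S was called higher and APOH and C5 lower. APOH also passed without either 2D control array, and C1S without 2D control replicate 1. AGT was 8.29 and 7.5 in 2D treated and 9.04 and 8.51 in 2D control cultures (−0.88, limma adjusted p = 0.709), and CFI 10.87 and 10.76 in 2D treated and 11.87 and 11.37 in 2D control cultures (−0.81, adjusted p = 0.342). Of the 4 pairs of arrays, the 2D control pair had the largest median difference. Among the 27 members above background, 21 were higher on 2D control replicate 1 than on replicate 2, by a median of 0.29, and the largest gap was that of FGB at 1.58 (7.46 and 5.87).

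C1S and C1R, neighbours on chromosome 12 with 0 other protein-coding genes between them, had their highest group means in treated monolayers. C1S was 13.67 and 13.43 in 2D treated and 12.15 and 11.81 in 2D control cultures, and 12.48 and 12.66 in 3D treated and 12.8 and 12.88 in 3D control cultures. C1R was 11 and 10.53 in 2D treated and 9.54 and 9.17 in 2D control cultures, and 10.15 and 10.52 in 3D treated and 10.64 and 10.72 in 3D control cultures. With treatment, values of both genes were thus higher on all arrays in 2D and lower on all arrays in 3D, without passing in either form. C3 had 13.8 and 13.66 in 2D treated and 13.55 and 13.1 in 2D control cultures, and CFB 13.38 and 12.86 in 2D treated and 12.76 and 11.97 in 2D control cultures, so that these 2 genes had the same pattern of signs, also without passing.

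**Figure D3:**
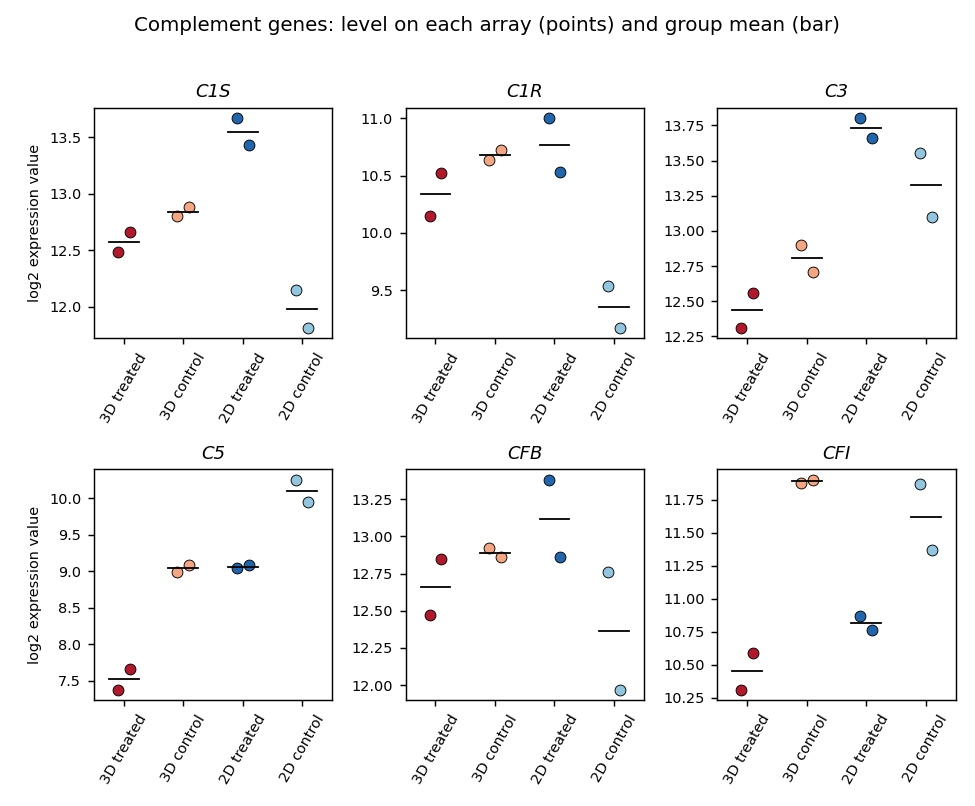
Log2 expression values (vertical axis, own range in each panel) of 6 complement genes in the 4 groups (horizontal axis), with 1 point per array and a bar at the mean of 2 arrays. C1S lies at 13.43 to 13.67 in 2D treated and 11.81 to 12.15 in 2D control cultures, and C5 at 7.38 to 7.66 in 3D treated and 8.99 to 9.09 in 3D control cultures.

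Whether the responses of spheroids and monolayers differed was tested directly, as the 3D response minus the 2D response, which uses the same control arrays as the comparisons before it. Of 36 members 1 was higher and 3 were lower, 2.78% and 8.33%, beside 1.32% and 1.94% of all genes (3.26% either way). FGA had a difference of −3.73 (standard error 0.22, limma adjusted p = 0.00989), the 2D log2 fold-change being −0.30. F3 had a difference of 3.36 (standard error 0.39, adjusted p = 0.0403), with 0.42 in 2D. For F5 it was −0.82 (standard error 0.08, adjusted p = 0.0312) and for C1S −1.84 (standard error 0.22, adjusted p = 0.0421). C1R, C3 and CFB, whose signs were also opposite in the 2 culture forms, did not pass (−1.76, −0.77 and −0.98, limma adjusted p = 0.0984, 0.289 and 0.515). Neither did AGT and APOH (−2.01 and −1.15, adjusted p = 0.159 and 0.126, with APOH passing without either 2D control array), FGB (−1.77, 0.647) or FGG (−2.43, 0.289). On their other probe sets the differences of FGA, F5 and C1S were not called, and F3 has only 1 probe set. The second of FGA gave −1.03 (limma adjusted p = 0.411), both others of F5 −0.65 and −0.92 (0.299 and 0.0654) and the other of C1S −2.10 (0.0598). On the probe set read here, the difference of FGA held without any single array. Without either 2D control array F3 and F5 lost theirs (adjusted p = 0.0612 to 0.0987), and so they did without either 2D treated array (0.0532 to 0.102). F3 also lost it without 3D control replicate 1 or 2 (0.0684 and 0.0535). C1S lost it without 2D control replicate 2 (0.0566), 2D treated replicate 1 (0.0918) or 2 (0.0675), 3D control replicate 1 (0.0889) or 2 (0.1) and 3D treated replicate 1 (0.0506).

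Control spheroids were compared with control monolayers for the effect of culture form without cytokines, on arrays that also serve the treated comparisons. Of 36 members 3 were higher (8.33%) and 3 lower (8.33%) in 3D, beside 5.77% and 4.9% of all genes (10.7% either way), and the median log2 fold-change was 0.11 over the members and 0 over all genes. AHSG had values of 8.71 and 8.71 in 3D control and 6.27 and 5.09 in 2D control cultures, 8.17-fold higher (log2 fold-change 3.03, standard error 0.46, limma adjusted p = 0.0379). FGA had 8.4 and 8.7 in 3D control and 6.78 and 6.49 in 2D control cultures, 3.77-fold higher (1.91, standard error 0.15, adjusted p = 0.0127). CP had 14.34 and 14.3 in 3D control and 13.28 and 13 in 2D control cultures (1.18, standard error 0.19, adjusted p = 0.0428). These genes were thus at their highest in untreated spheroids. FGG and FGB gave 2.12 and 1.18 in the same direction without passing (limma adjusted p = 0.145 and 0.591). RBP4, C5 and F5 were lower in 3D. RBP4 had 10.39 and 10.41 in 3D control and 11.58 and 11.49 in 2D control cultures (−1.13, adjusted p = 0.0422), and C5 had 8.99 and 9.09 in 3D control and 10.25 and 9.95 in 2D control cultures (−1.06, adjusted p = 0.0315). F5 gave −0.48 (adjusted p = 0.0249). C1S, C1R and F3 were near the threshold, at 0.86, 1.32 and 1.35 (adjusted p = 0.0532, 0.0545 and 0.071).

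Of these 6 calls only that of FGA held without any single array, although its second probe set gave 0.81 (limma adjusted p = 0.281), and none passed with the 4 control arrays fitted alone (limma adjusted p up to 0.195). On other probe sets F5 gave −0.90 and −0.21 (limma adjusted p = 0.0558 and 0.415). CP gave 1.48, 1.31 and 0.61 (0.0213, 0.0221 and 0.0839), and AHSG 0.67 on its dim second one (0.0114). The call of C5 ended without each of the 8 arrays (adjusted p = 0.051 to 0.113). F5 kept its call without 3D control replicate 1 alone (0.0508 to 0.0946 otherwise) and AHSG without 2D control replicate 1 alone (0.0594 to 0.142 otherwise). CP and RBP4 kept theirs without either 3D treated array and lost them without any 2D control, 2D treated or 3D control array (0.0821 to 0.154 for CP, 0.0917 to 0.154 for RBP4). AHSG also moved in size, with a log2 fold-change of 2.44 without 2D control replicate 2 and 3.62 without 2D control replicate 1.

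**Figure D4:**
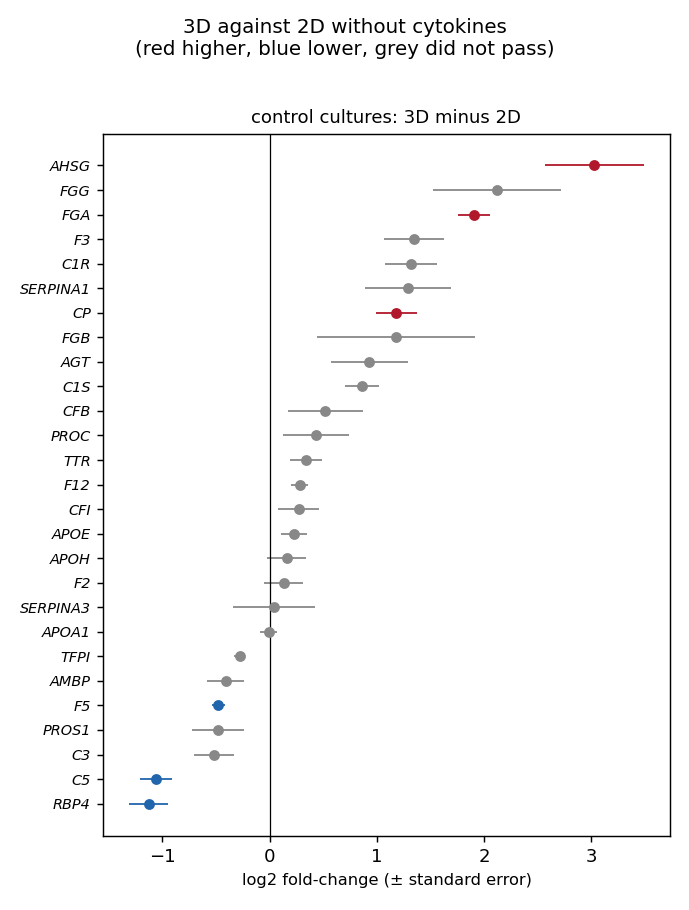
Log2 fold-changes (horizontal axis) with standard errors of the 27 members above background in control 3D minus control 2D cultures. Red points (AHSG, FGA, CP) passed as higher, blue points (RBP4, C5, F5) as lower, and grey points did not pass.

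Other genes of the same systems were read from lists that do not overlap with the members. These lists too were written with earlier results known, so their shares are description only. Of 24 further coagulation and fibrinolysis genes, 1 rose (4.17%) and 2 fell (8.33%) in treated 3D cultures, near the 5.53% and 10.8% of all genes. TFPI2, a protease inhibitor of the extracellular matrix, went up by 2.0 on the log2 scale (limma adjusted p = 0.00896). FGL1, a fibrinogen-like protein, and F8, coagulation factor VIII, changed by −1.97 and −1.16 (adjusted p = 0.00769 and 0.0279). Of 24 further complement genes 1 rose (4.17%) and 3 fell (12.5%), again near the shares of all genes. CD55, a membrane protein that breaks up complement convertases, gave 1.53 (adjusted p = 0.00579), CFD, the serine protease factor D, −1.60 (0.0457), C1RL, a C1R-like protease, −1.43 (0.0204) and CLU, clusterin, −0.78 (0.0183). The lipoprotein list (15 genes) had LCAT, the cholesterol acyltransferase, as its single call (6.67%) at 0.92 (adjusted p = 0.0156). Of 16 further acute phase and transport proteins 0 rose and 2 fell (12.5%), namely LRG1, a glycoprotein of inflammation, and SERPINA6, the cortisol carrier (−2.38 and −1.68, adjusted p = 0.0329 and 0.0276). In treated 2D cultures, where 0.197% of all genes were called, 0 genes of any of these 4 lists passed in limma.

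Regulators known for these genes were listed as well, again with earlier results of these data known. An excess over the share of all genes is therefore no independent result. Of 10 measured liver-type transcription factors, 0 rose and 3 fell (30.0%) in treated 3D cultures, where 10.8% of all genes fell. FOXA3 and FOXA2, forkhead factors of endoderm, changed by −2.70 and −0.28 on the log2 scale (adjusted p in limma 0.0474 and 0.0413), and CEBPA, a C/EBP factor of differentiated cells, by −2.03 (0.023). CEBPA was at a mean of 5.79 in 3D treated and 7.83 in 3D control cultures, and at 7.64 in 2D treated and 7.67 in 2D control cultures, although the difference between both responses did not pass (−2.0, adjusted p = 0.103). Of 15 genes of acute phase signalling 6 rose (40.0%) and 3 fell (20.0%), beside 5.53% and 10.8% of all genes. The cytokine gene IL1B rose (2.90, adjusted p = 0.0369), as did NFKB1, the p50 subunit precursor of NF-κB (1.89, 0.00928), RELA, the p65 subunit (1.23, 0.0263), LIF, an IL-6 family cytokine (1.64, 0.0116), JAK1, a kinase of cytokine receptors (1.03, 0.0147), and CEBPB, a C/EBP factor of the acute phase (0.89, 0.0152). STAT3, the factor that relays IL-6 signals, CEBPD, another C/EBP factor, and IL1R1, an IL-1 receptor, fell (−0.56, −1.74 and −1.95, adjusted p = 0.0143, 0.00467 and 0.00501). For these 3 the response of spheroids also differed from that of monolayers (−0.71, −1.95 and −1.82, limma adjusted p = 0.0452, 0.0199 and 0.0303). They are 20.0% of the list, beside 1.94% of all genes called lower in that comparison. In treated 2D cultures, where 0.197% of all genes were called, 0 genes of both lists passed in limma.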

How the data were processed

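RNA of 4 groups of cultures was hybridised to 8 Affymetrix U133 plus 2.0 arrays, 2 for each group. The deposited table holds log2 expression values from GCRMA as run by the authors, a method that corrects for background, normalizes arrays to each other and gives 1 value per probe set. The submitters' notes also list limma 3.6.9. Values were used without further scaling. After removal of 62 Affymetrix controls, 54613 probe sets were tested. The platform annotation gave 41091 of them 1 gene, 1801 several and 11721 none. Near background means below the array median on both arrays of a group.

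Group means were compared in R 4.3.3 by the limma package (version 3.58.1; lmFit and eBayes, two-sided, 4 residual degrees of freedom), and p-values were adjusted by Benjamini-Hochberg across the 54613 probe sets. The procedure was tested on simulated data. Members, lists and motifs were chosen with earlier results of these data known. Values are given for members called or above background, and for the other lists the 3 called genes with the largest change in 3D are named. CLU, CEBPB, CEBPD, JAK1, LIF, RELA, STAT3 and genes named from the marker lists were added after their values were seen. Promoters were RefSeq sequences of GRCh38.p14.

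The alternatives were a replicate block, an intensity trend, quantile normalization, a filter on dim probe sets, another choice of probe set, a fold of at least 2, a fit of the 4 arrays of a comparison, and leaving out each array in turn, whose partner then takes the spread of the remaining groups. Precision is limited by the number of arrays. Figures were made in Python 3.11.15 (matplotlib 3.10.9).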

Additional observations from a re-analysis of the deposited data

Results flagged for a closer look

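The response to TNF and TGFβ differed between spheroids and monolayers in 4 members by limma's test of the difference. FGA had a 3D response minus 2D response of −3.73 on the log2 scale (adjusted p = 0.00989). For F3 this difference was 3.36 (adjusted p = 0.0403), for F5 −0.82 (adjusted p = 0.0312) and for C1S −1.84 (adjusted p = 0.0421). The differences of F3, F5 and C1S were not called with replicate number as a block or without some single arrays, and those of FGA, F5 and C1S were not called on their other probe sets. SERPINA1 and AHSG were called on a dimmer probe set only (2.81 and −0.60, limma adjusted p = 0.0433 and 0.0403).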

How the results depend on the processing

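The counts of members were sensitive to the fit. In treated 3D cultures, 1 higher and 9 lower in the limma fit on all arrays, 5 were lower with replicate number as a block, 15 after the filter on dim probe sets, 2 (with 0 higher) on the 4 arrays alone, and 3 were higher on the probe set with the largest change. With single arrays left out, 1 to 3 were higher and 3 to 10 lower. In treated 2D cultures the filter gave 1 higher and 2 lower, and leaving out single arrays 0 to 1 of each. For the difference between both responses the block left 0 higher and 1 lower, the filter 6 lower, the probe set with the largest change 2 higher and 1 lower, and single arrays left out 0 to 3 higher and 1 to 3 lower. For control 3D against control 2D cultures the counts were 1 higher and 0 lower with the block, 5 higher with the intensity trend and with quantile normalization, 7 higher after the filter, 0 of both on the 4 arrays alone, and 1 to 3 higher and 0 to 1 lower with single arrays left out. Some of the added calls without 1 array were members at background (ALB, TF, F10, SERPIND1), whose values there barely vary. The cause of the other shifts was not tested.

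Signs turned for TFPI on the probe set with the largest change in each comparison (0.44 in treated 3D and, on a different probe set, 1.36 in control 3D against control 2D) and for APOH in the control comparison without 2D control replicate 2 (−0.10, and 0.42 at most without any other array). The median of all member group levels was 7.0, 6.98 after quantile normalization and 2.49 over all other probe sets of the members. Over all genes, calls in treated 3D ran from 183 to 1892 higher (1094 in the fit on all arrays) and 346 to 3342 lower (2141), in treated 2D from 3 to 363 higher (24) and 3 to 286 lower (15), for the difference from 105 to 1399 higher (261) and 121 to 1373 lower (384), and between controls from 139 to 1965 higher (1141) and 115 to 2004 lower (969). Arrays with the same replicate number deviated together at 0.283 between the 2D groups and −0.0148 to 0.0899 otherwise. The sample titles give a replicate number and do not say whether equal numbers are paired. Whether the 2D arrays share more than that number was not tested. Signal over background limits the 9 members at the lower end of the scale.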
